A study of Mus musculus with 3 samples.

Results

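Monocyte-directed progenitors carrying Irf8 are the bone marrow cells described here, and 3509 of the 17122 kept cells of the control and non_mCherry libraries met the rule that defines them. They were chosen by their measured counts: at least 3 UMIs (unique molecular identifiers, 1 per captured transcript) of Irf8, at least 1 UMI of 2 or more of the 4 companion markers Ly86, F13a1, Csf1r and Ms4a6c, no UMI of the B cell gene Cd79a, and not all 3 of the class II genes H2-Aa, H2-Ab1 and H2-Eb1 detected. Kept cells had at least 1000 genes, at least 2000 UMIs and under 10% mitochondrial UMIs. The levels of these 9 genes are therefore a description and carry no support for the name.

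3 groups of c-kit-positive, lineage-negative, DAPI-negative marrow cells were profiled as 10x Genomics droplet libraries, in a series on fatty acid metabolism and the differentiation block before AML1-ETO leukemia. Control cells were taken from 1 wild-type C57BL/6 mouse. The non_mCherry and mCherry libraries are the reporter-negative and reporter-positive fractions of 1 mouse with Mx1-Cre and a heterozygous conditional Runx1-Runx1t1 knock-in with mCherry downstream, induced by poly(I:C). Reporter-negative cells of that mouse are cells that did not respond and do not express the fusion. Mx1-Cre is driven by a promoter that answers interferon, and poly(I:C) is a double-stranded RNA mimic that raises interferon in the whole animal. No label gives poly(I:C) for or against in the control mouse, so this treatment, the genotype, the mouse and the library cannot be told apart in any difference between the libraries. Each group was 1 library, so no difference below has a replicate check and no test was made. All 95% intervals (exact Poisson for sums, exact Clopper-Pearson for shares) cover counting error only, and folds describe these libraries and not the conditions.

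IRF8 is a transcription factor of the interferon regulatory factor family that acts together with PU.1 (Spi1) in granulocyte-monocyte progenitors, where it favours monocyte and dendritic cell fates over the neutrophil fate. CSF1R is the receptor for macrophage colony-stimulating factor, F13a1 encodes a coagulation factor subunit made by monocytes, Ly86 encodes the MD-1 partner of a Toll-like receptor homologue, and Ms4a6c belongs to a family of membrane proteins found in myeloid cells. Early committed monocyte progenitors still make the azurophilic (primary) granule proteins, such as myeloperoxidase and neutrophil elastase, that they share with their neutrophil-directed relatives.

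Promoter sequences of Irf8 and of 3 genes whose levels set apart or divide the cells are shown as context for the factors named above. They come from RefSeq (GRCm38.p6), read 5′ to 3′ on the gene's strand, and end at or before the start of the gene in the GENCODE annotation. Capitals mark TTCNNNGAA, letters of the kind bound by STAT factors, in Irf8, and GAGGAAGT, letters of the kind bound by PU.1, in the others, both searched on both strands.
Irf8, chr8:120736108-120736357, plus strand: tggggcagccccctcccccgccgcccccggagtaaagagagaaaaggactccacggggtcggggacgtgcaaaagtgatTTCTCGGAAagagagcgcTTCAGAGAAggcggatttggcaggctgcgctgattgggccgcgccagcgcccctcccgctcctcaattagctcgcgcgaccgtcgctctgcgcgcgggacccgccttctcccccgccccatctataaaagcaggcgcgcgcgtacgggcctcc
Ly6c2, chr15:75111972-75112221, minus strand: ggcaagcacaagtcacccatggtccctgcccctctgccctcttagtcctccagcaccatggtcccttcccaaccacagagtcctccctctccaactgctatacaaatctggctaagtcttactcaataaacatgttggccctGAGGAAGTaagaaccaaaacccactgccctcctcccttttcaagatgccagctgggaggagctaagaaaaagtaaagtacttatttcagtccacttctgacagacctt
Elane, chr10:79886062-79886246, plus strand: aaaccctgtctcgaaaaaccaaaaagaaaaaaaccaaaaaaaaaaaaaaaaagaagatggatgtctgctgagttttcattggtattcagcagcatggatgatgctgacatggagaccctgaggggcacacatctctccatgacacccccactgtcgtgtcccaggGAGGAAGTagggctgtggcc
Mpo, chr11:87793534-87793580, plus strand: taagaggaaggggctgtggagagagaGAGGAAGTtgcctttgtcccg

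The Irf8 window held the STAT letters at 171 to 163 and at 153 to 145 bases before its RefSeq start, and 2306 of 32851 promoter windows (7.02%) held them at least once. The PU.1 letters stood at 109 to 102 bases before the GENCODE start of Ly6c2, 20 to 13 before that of Elane and 21 to 14 before that of Mpo, and at 108 to 101, 85 to 78 and 224 to 217 before the RefSeq starts, and 802 windows (2.44%) held them. 3 more patterns were searched in the same windows: an ETS-IRF composite element (756 windows, 2.30%), an IRF element (978, 2.98%) and TTGCNNAA, of the kind bound by C/EBP factors (3142, 9.56%). The first and second of these share letters and can overlap. Among the 15 genes furthest up in the selected cells, 12 had a window. Hpse and Il6st held the composite, Ctss the IRF pattern, Slpi the C/EBP pattern and Ly6c2 the PU.1 pattern. Among the 10 genes furthest down, 8 had a window, and Jchain, Ngp and S100a9 held the C/EBP pattern and S100a8 the PU.1 pattern. A match describes letters only, and no binding was measured.

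In the control library 2547 of 9066 kept cells were selected (28.1%; 27.2 to 29.0), and in the non_mCherry library 962 of 8056 (11.9%; 11.2 to 12.7). In the mCherry library, 2 of 10419 kept cells met the rule (0.0192%; 0.00232 to 0.0693), and 35 had 3 or more Irf8 UMIs. The rule therefore found these cells in the wild-type marrow and in the reporter-negative fraction, and the mCherry library is used below only to check the reporter label. Of 2910 control cells with 3 or more Irf8 UMIs, 315 had fewer than 2 companion markers, 12 of the rest had a Cd79a UMI and 36 had all 3 class II genes. The same steps in non_mCherry started from 1355 cells and left out 251, 127 and 15.

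The share depended on depth and on the cells around the selected ones. Median UMIs per selected cell were 20176 in control and 16304 in non_mCherry, against 12855 and 8462 in the other kept cells, so the rule drew on the deeper cells of both libraries. With each cell thinned to 5000 UMIs, 1193 of 8582 control cells (13.9%; 13.2 to 14.7) and 541 of 6431 non_mCherry cells (8.41%; 7.75 to 9.12) met the rule, after leaving out 484 and 1625 shallower cells. Of these 1193 and 541 cells, 1187 and 505 also met the rule unthinned. The rest met it only because thinning removed Cd79a or class II UMIs, so thinning also loosened the exclusions, more so in non_mCherry. Cd79a-positive cells, which the rule cannot select, made up 93 of the kept control cells (1.03%) and 2715 of the kept non_mCherry cells (33.7%). Over the kept cells without a Cd79a UMI the selected share was 28.4% in control and 18.0% in non_mCherry. The control share was 2.35 times the non_mCherry share as counted, 1.65 times after thinning, 1.58 times without Cd79a-positive cells and 1.30 times with both. The control share was thus the higher under each of these counts, by amounts that ranged from 1.30 to 2.35 times. Whether the libraries differ beyond what another pair of mice would show cannot be told from 1 library each, and fewer selected cells cannot be told apart from more cells of other kinds.

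**Figure D1:**
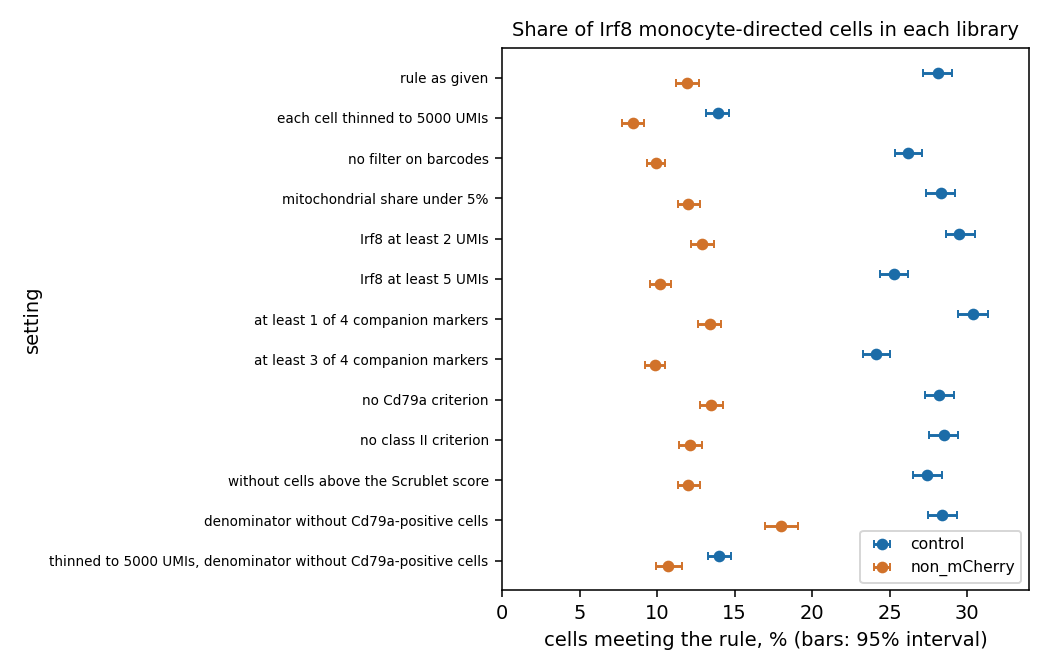
Share of kept cells that met the Irf8 rule (percent, horizontal axis) in the control and non_mCherry libraries under 13 settings of the rule, the cell filter, the depth and the denominator; bars are exact 95% intervals for counting error only. The control point lies to the right of the non_mCherry point in each setting, and the gap is smallest with thinned cells and a denominator without Cd79a-positive cells (14.0% and 10.7%).

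The genes that chose the cells had these levels, given as a description. Levels are UMIs summed over cells and scaled to a common total of the same cells' UMIs (CPM). Irf8 stood at 645 CPM in the selected control cells and 729 CPM in the selected non_mCherry cells, against 49.5 and 67.8 CPM in the other kept cells. A selected cell had a median of 12 Irf8 UMIs in control (3 to 73) and 10 in non_mCherry (3 to 59). In GRCm38, Irf8 (ENSMUSG00000041515) spans chromosome 8 bases 120736358 to 120756694, plus strand.
Ms4a6c was at 438 and 469 CPM, F13a1 at 311 CPM in both, Ly86 at 147 and 156 CPM and Csf1r at 61.7 and 78.5 CPM in the selected cells of control and non_mCherry. Ms4a6c was detected in 98.3% and 99.3% of them, F13a1 in 89.4% and 84.0%, Ly86 in 86.0% and 81.4%, and Csf1r in 67.1% and 69.2%. Csf1r was thus the companion marker most often missing in both libraries. All 4 companion markers were detected in 1398 control cells (54.9%) and 494 non_mCherry cells (51.4%), 3 in 790 (31.0%) and 300 (31.2%), and 2 in 359 (14.1%) and 168 (17.5%). Cd79a was 0 by the rule. H2-Ab1 had a UMI in 34.8% and 39.3% of the cells, H2-Aa in 1.69% and 3.01% and H2-Eb1 in 0.628% and 1.04%.

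Free RNA gives UMIs in cells that do not express a gene. Kept cells with 3 or more UMIs each of the erythroid genes Klf1 and Car2 served as a reference (837 in control and 626 in non_mCherry, median 26684 and 23260 UMIs). Their highest Irf8 count was 8 and 12 UMIs, and whether such UMIs were free RNA alone was not tested. Among those cells, 10.8% in control and 7.99% in non_mCherry had an Irf8 UMI, and 1.55% and 0.799% a Ly86 UMI. Cells just inside and just outside the Irf8 threshold had these levels. The 130 control cells with exactly 3 Irf8 UMIs had Elane at 4787 CPM and Ly6c2 at 616 CPM, and the 132 cells with 2 Irf8 UMIs that met the other parts of the rule had 4529 and 458 CPM. In non_mCherry the 70 cells at 3 had 2179 and 341 CPM, and the 76 cells at 2 had 3540.1 and 331 CPM. At the companion threshold, Ly6c2 was at 431 CPM in the 359 control cells with 2 companion markers and 116 CPM in the 207 with 1, and at 269.8 and 109 CPM in the 168 and 115 non_mCherry cells.

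Outside the rule's genes, many monocyte genes were higher in the selected cells of both libraries. Genes of late neutrophil granules, erythroid cells and mast cells were lower there. At a ratio of at least 2, 122 genes were higher in the selected than in the other kept control cells (2.12% of 5760 genes tested) and 199 were lower (3.45%). In non_mCherry 138 of 5750 genes were higher (2.40%) and 246 lower (4.28%). Genes counted as higher in both libraries numbered 90, which is 73.8% of the control list and 65.2% of the non_mCherry list, and 162 were lower in both (81.4% and 65.9%). The ratio is log2((CPM + 5)/(CPM + 5)) over genes that reached 20 CPM in either sum, which understates the ratio of low genes. Because the cells were chosen by counts in the same libraries, these differences describe the selected cells.

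The genes furthest up came first from the monocyte surface and lysosome. Ly6c2, which encodes the Ly6C antigen used to sort inflammatory monocytes, stood at 997 CPM in selected and 157 CPM in other control cells (6.36-fold; 6.25 to 6.48), and at 581 and 82.1 CPM in non_mCherry (7.07-fold; 6.85 to 7.30). Its gene spans chromosome 15 bases 75108158 to 75111970, minus strand, and as a member of the Ly6 family with a close copy its count may share reads with that copy. Ctsh, a lysosomal cysteine protease, was at 104 against 11.6 CPM in control (9.03-fold; 8.47 to 9.64) and 104 against 9.34 CPM in non_mCherry (11.1-fold; 10.2 to 12.1).
Ccr2, the chemokine receptor that lets monocytes leave the marrow, was at 95.8 against 12.6 CPM in control (7.61-fold; 7.14 to 8.11) and 114 against 13 CPM in non_mCherry (8.79-fold; 8.13 to 9.51). Nrp1, a co-receptor of semaphorins and VEGF, showed the widest quotient in both, 32.5 against 1.87 CPM in control (17.4-fold; 14.9 to 20.4) and 44.4 against 3.14 CPM in non_mCherry (14.1-fold; 12.2 to 16.4). Slpi, a secreted inhibitor of elastase, was at 365 against 47.7 CPM and 199 against 38.5 CPM. In these genes the level of the selected cells lay far above the level of the others in both libraries, and the intervals of the 2 sums did not touch. The genes were picked by this ratio in the same cells, so the gap is a description only.
The other genes among the 15 furthest up were Cfp (properdin of the complement pathway), Gria3 (a glutamate receptor subunit), Tifab, Pld4 (an endolysosomal nuclease), Mpeg1 (the pore-forming perforin-2 of phagocytes), Ctss (the cathepsin that trims the class II invariant chain), Il6st (the gp130 subunit of interleukin-6 receptors), Tyrobp and Fcer1g (signalling adaptors of Fc and related receptors) and Hpse (heparanase). Their folds ran from 4.08 for Fcer1g to 9.36 for Tifab in control and from 3.94 for Fcer1g to 13.8 for Mpeg1 in non_mCherry. Of the 15 genes, only Ly6c2, Slpi, Tyrobp and Fcer1g also reached 20 CPM in the other cells. The rest passed the filter on low values through the selected cells alone.

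**Figure D2:**
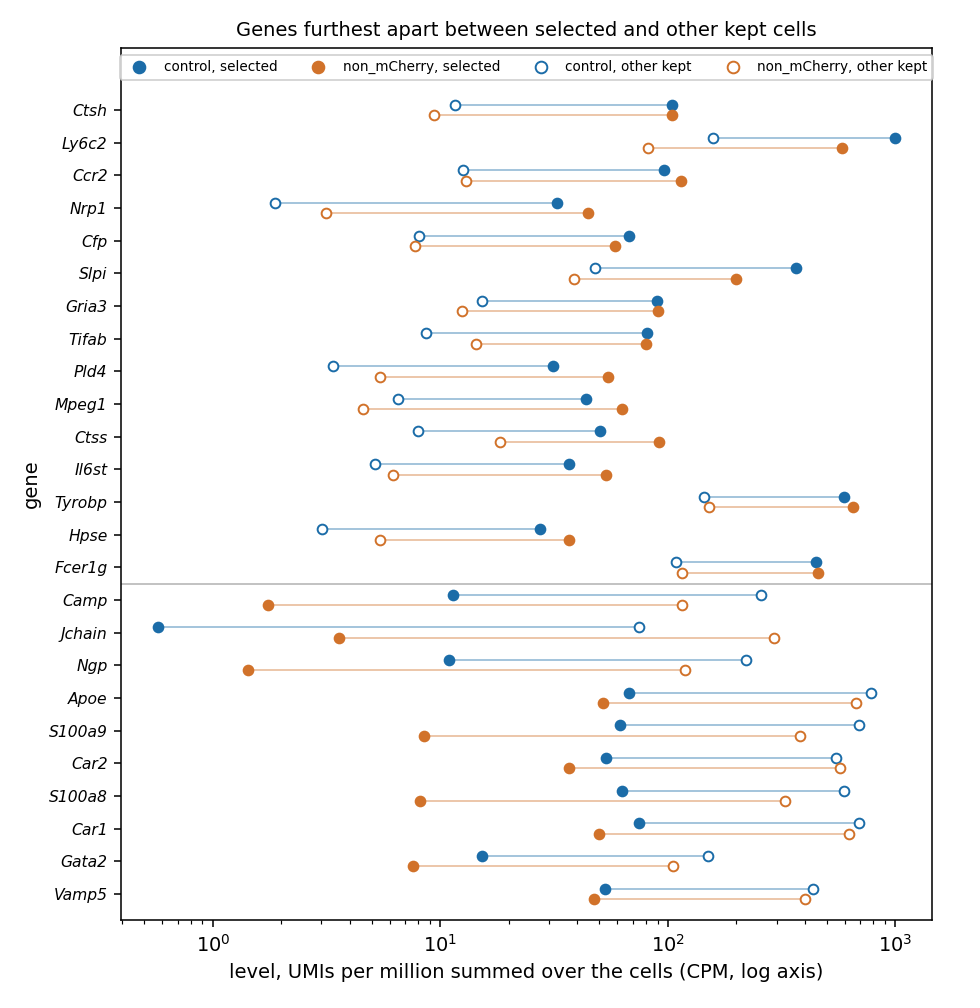
Level in CPM (log axis) of the 15 genes furthest up and the 10 furthest down, in selected cells (filled) and other kept cells (open) of the control and non_mCherry libraries. Filled points lie right of the open points for genes such as Ly6c2 (997 against 157 CPM in control) and left of them for genes such as Camp (11.4 against 256 CPM in control).

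The genes furthest down were those of other marrow lineages. Camp, the cathelicidin of secondary neutrophil granules, was at 11.4 against 256 CPM in control and 1.74 against 115 CPM in non_mCherry. Car2, the carbonic anhydrase of erythroid progenitors, was at 53.6 against 548 CPM and 36.6 against 569 CPM. Gata2, a transcription factor of stem cells, mast cells and early erythroid cells, was at 15.2 against 149.6 CPM and 7.57 against 105 CPM.
Ngp, S100a8 and S100a9 of maturing neutrophils, Car1 of erythroid cells, Apoe, Vamp5 and Jchain completed the 10. Jchain, the joining chain of secreted immunoglobulin, was at 0.574 against 74.5 CPM in control and 3.60 against 293 CPM in non_mCherry, and with the Cd79a-positive cells left out of the other control cells its control ratio was 0.02 and its non_mCherry ratio -0.16, so its difference rested on those cells in both libraries. For the other 24 genes of this comparison in control, and all 25 in non_mCherry, the direction was the same under each alternative tried.

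The transcription factors did not move as 1 block. The list holds 24 factors of monocyte, dendritic and neutrophil fate, of which 15 passed the filter on low values in control and 16 in non_mCherry. At 2-fold, 2 were higher and 4 lower in control, with a median log2 ratio of 0.11, and 3 higher and 5 lower in non_mCherry, with a median of 0.03 (median of all genes tested -0.07 in both). Spi1, which encodes PU.1, was at 272 against 138 CPM in control and 291 against 115 CPM in non_mCherry. Klf4, required for monocyte formation, was at 52.6 against 12.3 CPM and 29.5 against 10.6 CPM. Nfil3, a basic leucine zipper factor, was at 20.2 against 5.79 CPM and 21.9 against 6.40 CPM. These 3 were the factors furthest up in both libraries, and Klf4 and Nfil3 reached 20 CPM only in the selected cells. Factors on either side of the name lay below. Cebpe, which drives late granulocyte maturation, was at 17.7 against 65.1 CPM and 11.7 against 44.5 CPM. Egr1, an immediate early factor known to promote macrophage differentiation, was at 15.4 against 73.6 CPM and 17.6 against 104 CPM.

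Receptors and effector genes that passed the filter on low values lay mostly above the other cells. Il6ra, Il6st and Cybb reached 20 CPM only in the selected cells. The counts and medians of these lists are therefore set in part by the filter. Of 16 cytokine and chemokine receptors tested, 5 were 2-fold higher in control and 6 in non_mCherry and none was 2-fold lower, with median log2 ratios of 0.72 and 0.76. Il6ra, the ligand-binding chain for interleukin-6, was at 38.3 against 8.37 CPM in control and 44.7 against 6.56 CPM in non_mCherry, beside its partner Il6st at 36.7 against 5.18 CPM and 53.6 against 6.17 CPM. Kit, the receptor used in the sort, was lower in the selected cells, at 41.2 against 81.0 CPM and 35.8 against 61.1 CPM. Flt3, the receptor of early lymphoid and dendritic progenitors, was at 33.5 against 20.7 CPM in control and 53.6 against 12.2 CPM in non_mCherry.
Among the 6 subunits of the phagocyte oxidase, Cybb, Ncf1 and Ncf4 were 2-fold higher in both libraries (medians 0.90 and 0.99 over the 6). Cybb, the catalytic subunit, was at 46.0 against 12.4 CPM and 47.2 against 7.97 CPM. Of 19 lysosome and cathepsin genes, 8 were 2-fold higher in each library and 1, Cd63, was lower, at 67.8 against 360.2 CPM in control and 26.2 against 209 CPM in non_mCherry. CD63 is a tetraspanin of late endosomes and of azurophilic granules. Of the genes for pathogen sensing and Fc receptor signalling, 6 of 11 tested were 2-fold higher in control and 5 of 9 in non_mCherry (medians 1.17 and 1.54). Unc93b1, the chaperone that carries nucleic acid-sensing Toll-like receptors to endosomes, was at 145 against 26.4 CPM in control.

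Granule genes divided by granule type. Of the primary granule genes, 4 of 14 were 2-fold higher in control and 2 of 13 in non_mCherry, with medians of 0.61 and 0.69 and none 2-fold lower. Nkg7 and Srgn lay below the other cells in both libraries, at log2 ratios of -0.95 and -0.50 in control and -0.97 and -0.65 in non_mCherry. Prtn3 (proteinase 3) was at 6226 against 2798 CPM and 4668 against 2014 CPM, and Mpo at 3977 against 1866 CPM and 2762 against 1322 CPM. Secondary and tertiary granule genes went the other way, with 10 of 11 lower in control and 7 of 8 in non_mCherry (medians -2.08 and -3.33), and Cybb, which that list shares with the oxidase, as the exception.
Metabolic genes stayed near the other cells. None of 71 nuclear oxidative phosphorylation genes, 18 fatty acid oxidation genes, 12 (control) or 11 (non_mCherry) genes of fatty acid synthesis, uptake and storage, and 8 cholesterol synthesis genes passed 2-fold in either library. Median log2 ratios were 0.11 and 0.06 for oxidative phosphorylation and 0.07 and 0.05 for fatty acid oxidation. Fabp5, a fatty acid carrier, was the highest of the uptake list, at 367 against 233 CPM in control and 342 against 267 CPM in non_mCherry.

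The selected cells were set beside marker lists of the cell types the sort could hold. These cells were chosen by monocyte genes, and the lists were chosen with earlier results of these data known. Higher levels of other monocyte markers were thus largely built in. The values below describe the cells and are no independent check of the name. Most monocyte markers reach the filter on low values through the selected cells, so a count over tested genes would be set in part by the filter, and all 26 markers outside the rule are given instead. Their level was higher in selected than other cells for 25 of 26 in control and 26 of 26 in non_mCherry, many of them near 0 in both. Of the 7 that reached 20 CPM in the other cells of each library, 4 in control and 5 in non_mCherry were 2-fold higher and none lower. Their summed level was 3104 CPM in selected and 847 CPM in other control cells, and 2572 and 629 CPM in non_mCherry. Single members of the list varied in the selected cells. Fcgr1 was at 1.07 and 2.61 CPM and Vcan at 0.389 and 0.373 CPM in control and non_mCherry. Lgals3 was at 43.3 and 23.5 CPM, Ctss at 50.1 and 91.8 CPM and S100a4 at 18.7 and 40.5 CPM. Over all members, whatever their level, 10 of 10 erythroid and 10 of 10 basophil and mast cell markers were lower in the selected cells of each library, and so were 11 of 12 secondary granule neutrophil markers. Neutrophil-directed progenitor markers went with the monocyte list, with 11 of 14 higher and 3 lower in each library. Of those at 20 CPM or more in the other cells, 2 of 11 in control and 3 of 12 in non_mCherry were 2-fold higher, and 1 in each was 2-fold lower.
Stem and multipotent progenitor markers were mostly lower than in the other cells, with 4 of 9 tested 2-fold lower and 0 higher in control (median -0.63) and 3 lower and 2 higher in non_mCherry (median -0.53). Cd34, the antigen of stem and progenitor cells, had a UMI in 91.2% of selected control and 88.1% of selected non_mCherry cells, against 13.6% and 10.1% of the Klf1 and Car2 positive cells. Mki67, a gene of cycling cells, had a UMI in 80.8% and 68.6%, and in 46.9% and 44.3% after thinning to 5000 UMIs. The thinned Mki67 share was 42.5% and 47.3% in the other kept cells and 69.2% and 73.2% in Klf1 and Car2 positive cells, so that of the selected cells lay above the other cells in control and below them in non_mCherry. Against the other cells, medians were 0.04 and 0.05 for S phase genes and -0.12 and -0.29 for G2 and M phase genes, of which 38 of 42 lay below 0 in non_mCherry. Siglech, a marker of plasmacytoid dendritic cells, had a UMI in 41 control cells (1.61%) and 27 non_mCherry cells (2.81%), against 2 of 837 Klf1 and Car2 positive control cells and 0 of 626 in non_mCherry, where counting error alone allows a share of up to 0.588%.

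The closest relatives in the same libraries were Elane-high cells, with at least 10 Elane UMIs, under 3 Irf8 UMIs and no Cd79a UMI (1207 control and 661 non_mCherry cells, 13.3% and 8.21% of kept cells). Against them the selected cells had 100 of 5397 genes 2-fold higher in control (1.85%) and 74 lower (1.37%), and in non_mCherry 112 of 5428 higher (2.06%) and 99 lower (1.82%). Elane and Irf8 chose these cells and are left out of this account. Median UMIs per cell were close here, 20176 against 19786 in control and 16304 against 17689 in non_mCherry.
Ctss led the genes that were higher, at 50.1 against 2.31 CPM in control (21.7-fold; 16.6 to 28.8) and 91.8 against 3.65 CPM in non_mCherry (25.2-fold; 18.6 to 35.0). Tpm4 (a tropomyosin), Pyhin1 (an interferon-inducible nuclear protein), Nrp1, Mpeg1 and Pld4 followed, at 9.44-fold to 16.8-fold in control and 10.1-fold to 17.5-fold in non_mCherry. Klf4 was at 52.6 against 4.46 CPM and 29.5 against 3.48 CPM, and Flt3 at 33.5 against 5.34 CPM and 53.6 against 5.68 CPM. Ly6c2 was not particular to the selected cells. After thinning to 5000 UMIs it had a UMI in 57.0% of control and 35.8% of non_mCherry Elane-high cells, against 75.7% and 64.9% of selected cells. Of the monocyte markers, 10 of 16 in control and 13 of 17 in non_mCherry were 2-fold higher than in Elane-high cells, a count the filter on low values also bears on. Fcgr3 was 2-fold lower in non_mCherry (40.8 against 120.2 CPM), and none was in control.
The neutrophil maturation genes lay on the other side. Cebpe was at 17.7 against 229 CPM (12.9-fold lower; 12.1 to 13.9) and 11.7 against 212 CPM (18.1-fold lower; 15.6 to 21.0). Gfi1, the repressor that favours neutrophil over monocyte fate, was at 11.3 against 47.3 CPM and 9.87 against 40.4 CPM. Camp, S100a8, Cd63, Pglyrp1 and Wfdc21 were also among the 6 furthest down. Spi1 did not separate the sets, at 272 against 253 CPM and 291 against 251 CPM. Mpo was at 3977 against 5771 CPM and 2762 against 5229 CPM, lower in the selected cells.

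The class II positive cells that met the rest of the rule were few, 36 in control and 15 in non_mCherry, and their values carry wide counting intervals. Cd74, the invariant chain, was at 1.56 CPM in selected and 5523 CPM in class II positive control cells, and at 6.64 and 2548 CPM in non_mCherry, which follows closely from the class II part of the rule. Id2 and Batf3, transcription factors of conventional dendritic cells, were at 4.83 against 683 CPM and 0.426 against 160.3 CPM in control, and at 7.89 against 429 CPM and 0.310 against 83.1 CPM in non_mCherry. Elane and Ly6c2 went the other way, with Ly6c2 at 997 against 247 CPM and 581 against 148 CPM.

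Expression within the selected cells went with the number of companion markers: an early lymphoid gene was higher in cells with 2 and monocyte genes in cells with 4. Dntt, the terminal transferase of early lymphoid progenitors, was at 165 CPM in control cells with 2 companion markers and 14.3 CPM in those with 4 (11.5-fold; 10.3 to 12.9), and at 153 and 15.9 CPM in non_mCherry (9.62-fold; 7.91 to 11.8). Adgrg1, Gimap6, Nrgn and Sept1 were also higher with 2 markers. Ly6c2 went from 431 CPM with 2 markers through 933 CPM with 3 to 1152 CPM with 4 in control, and from 269.8 through 526 to 709 CPM in non_mCherry. Klf4 went from 18.2 through 39.7 to 66.8 CPM and from 12.3 through 28.0 to 35.7 CPM, so both genes had the same order in both libraries.
Pyhin1, Ctsh, Gpr183, Lgals3 and Cfp were lower with 2 markers as well. Of the monocyte markers tested, 9 of 18 in control and 10 of 17 in non_mCherry were 2-fold lower and none higher. The companion markers that divide the cells are themselves genes of the monocyte name, so this count lies close to the division. No share over all genes stands beside it. Detecting more markers goes with depth: cells with 2, 3 and 4 had median UMIs of 18069, 20011 and 20793 in control and 14875, 15602 and 16934 in non_mCherry. After thinning to 5000 UMIs, the cells that met the rule had 2, 3 and 4 markers in 39.9%, 43.7% and 16.4% in control and 35.9%, 47.7% and 16.5% in non_mCherry. The part of depth in the order of levels was not tested.

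Elane divided the selected cells, in different proportions in the libraries. Elane, the neutrophil elastase gene (ENSMUSG00000020125, chromosome 10 from 79886247 to 79888215), had at least 10 UMIs in 1838 of 2547 selected control cells (72.2%; 70.4 to 73.9) and 396 of 962 selected non_mCherry cells (41.2%; 38.0 to 44.3). It was at 0 in 158 (6.20%) and 202 (21.0%). The median was 49 UMIs per cell in control and 5 in non_mCherry. An Elane UMI was also found in 67.7% of Klf1 and Car2 positive control cells and 42.2% of those in non_mCherry. Their highest count was 437 and 113 Elane UMIs in a cell, and whether these UMIs were free RNA was not tested. After thinning to 5000 UMIs, 84.7% of selected control and 65.9% of selected non_mCherry cells had an Elane UMI, against 24.5% and 12.1% of the Klf1 and Car2 positive cells.

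**Figure D3:**
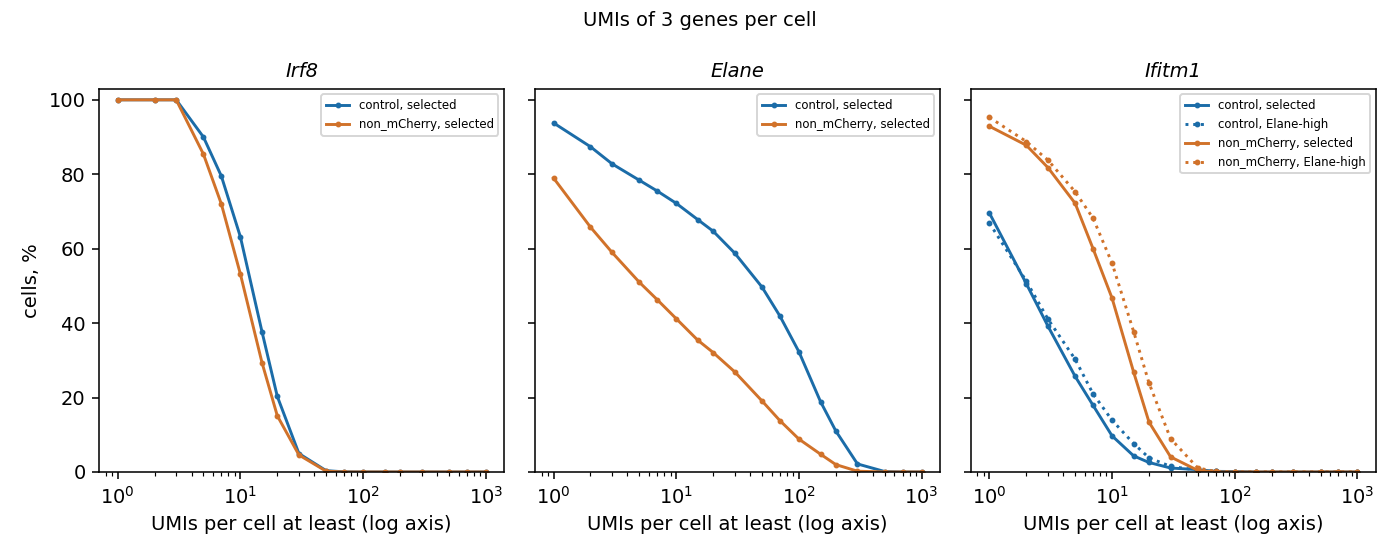
Percent of cells (vertical axis) with at least the number of UMIs on the horizontal axis, for Irf8 and Elane in selected cells and Ifitm1 in selected (solid) and Elane-high (dotted) cells of the control and non_mCherry libraries. The Elane curves of the libraries part, with 72.2% of control and 41.2% of non_mCherry cells at 10 or more, and so do the Ifitm1 curves in the opposite order (9.70% and 46.7%).

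Cells with fewer than 10 Elane UMIs were higher in the early lymphoid gene Dntt, in some plasmacytoid dendritic markers and in the stem cell markers tested, in both libraries. Dntt was at 123 CPM in these cells and 11.2 CPM in the cells with 10 or more in control (11.0-fold; 9.88 to 12.2), and at 87.5 and 2.32 CPM in non_mCherry (37.7-fold; 23.7 to 64.1). Runx2, a runt factor that plasmacytoid dendritic cells use, was at 76.3 and 19.0 CPM in control and 95.2 and 20.5 CPM in non_mCherry. Flt3 was at 92.8 and 14.3 CPM, and 79.8 and 25.5 CPM. Cox6a2, Ifi27l2a, Lsp1 and Ppfia4 were the others of the 6 furthest up. Stem and multipotent markers had medians of 0.73 over 6 genes, all 6 past 1.5-fold, in control and 0.53 over 5 genes, all above 0, in non_mCherry. G2 and M phase genes were above 0 in 42 of 44 and 38 of 40, with medians of 0.38 and 0.31. Erythroid markers had a median of 1.13 over 6 genes in control, with 3 hemoglobin chains past 2-fold, and 0.16 over 3 genes in non_mCherry. Shares over all genes are not given for the Elane split, so its list counts and medians describe the lists only.
Of the plasmacytoid dendritic cell markers, 4 of 12 reached the filter, and Cox6a2, Runx2 and Tcf4 were 2-fold higher in the cells with little Elane in both libraries. Cox6a2 in both libraries and Runx2 in control reached the filter only through those cells, so it sets this count in part. Siglech, which did not reach the filter, was at 6.06 against 0.0490 CPM in control and 4.68 against 0.129 CPM in non_mCherry. Irf8 itself was at 912 against 559 CPM and 969 against 470.3 CPM, a value close to the rule. For these cells, 27.8% of the selected control and 58.8% of the selected non_mCherry cells, the name monocyte-directed therefore stands on fewer genes: the monocyte markers had a median log2 ratio of -0.13 and -0.01 against the cells with more Elane, with Ctss and Cx3cr1 above, Ccr2 even, and Ly6c2, Fcgr3 and Cybb below.
Ly6c2 was at 226 against 1247 CPM in control and 358 against 819.7 CPM in non_mCherry, and Ccr2 at 96.9 against 95.5 CPM and 113 against 115 CPM. All 14 primary granule genes tested lay lower in the cells with little Elane in both libraries (8 by 2-fold in each, medians -1.32 and -1.31). Elane is among the 14 and among the 8, so the split itself sets part of these counts and medians. Ms4a3, a membrane protein of granulocyte-monocyte progenitors, was at 39.6 against 689.9 CPM and 78.7 against 736 CPM, and Mpo at 1735 against 4703 CPM and 1302 against 4327 CPM. Elane itself is the split and is no finding. Median UMIs were 17774 against 21167 in control and 14394 against 19020 in non_mCherry, so cells with little Elane were also the shallower ones.
Flt3 had a UMI in 916 control cells (36.0%) and 499 non_mCherry cells (51.9%), and 383 and 137 of these had 10 or more Elane UMIs. The Flt3 share in Klf1 and Car2 positive cells was 3.94% and 1.44%.

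**Figure D4:**
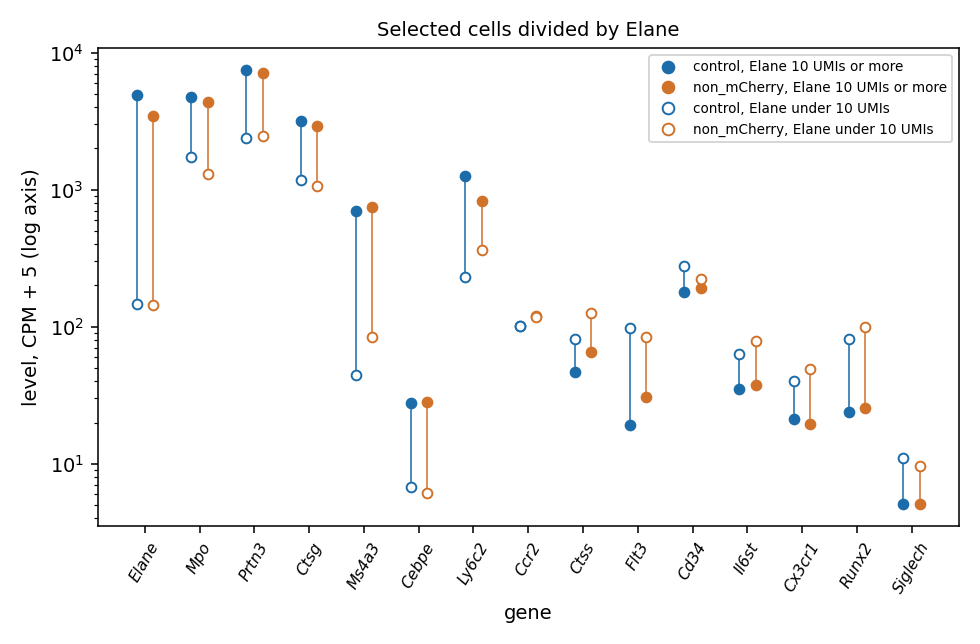
Level (CPM + 5, log axis, vertical) of 15 genes (horizontal) in selected cells with at least 10 Elane UMIs (filled) and fewer than 10 (open), for the control and non_mCherry libraries; a line joins the values of 1 library. Open points lie above filled points for Runx2, Flt3 and Cx3cr1 in both libraries and below them for Ms4a3, Ly6c2 and Mpo, while those of Ccr2 overlap (96.9 and 95.5 CPM in control).

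Between the libraries the selected cells were much alike. Non_mCherry over control, 11 of 5374 genes were 2-fold higher (0.205%) and 15 lower (0.279%). At 1.5-fold, a threshold added after the data were seen, 47 were higher (0.875%) and 52 lower (0.968%). The same comparison in the other kept cells gave 76 of 5706 genes higher and 12 lower at 2-fold, beside a difference in Cd79a-positive cells of 33.7% against 1.03%, and in Elane-high cells 13 and 8 of 5241. Across the 5374 genes, which are no independent replicates, the log levels of the libraries had a Pearson correlation of 0.990 in selected cells, given as a description. In the other kept cells it was 0.972 across 5706 genes. The median absolute log2 ratio was 0.10 in selected and 0.11 in other kept cells, so these measures hardly part the sets.

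Ifitm1 was the gene furthest up. Ifitm1, an interferon-induced transmembrane protein gene (ENSMUSG00000025491, chromosome 7 from 140967221 to 140969825), was at 634 CPM in selected non_mCherry cells (622 to 647) and 181 CPM in selected control cells (177 to 184), 3.51-fold higher (3.41 to 3.61). A selected cell had a median of 9 Ifitm1 UMIs in non_mCherry and 2 in control, and after thinning to 5000 UMIs 81.8% and 40.9% had at least 1. In Klf1 and Car2 positive cells the thinned shares were 23.3% and 32.7%, in the opposite order. The log2 ratio was 1.78 over all selected cells, 1.43 in those with fewer than 10 Elane UMIs and 1.88 in those with more, so it was above 2-fold on both sides of the Elane split.
Elane-high cells showed a like difference, 753 against 227 CPM (log2 ratio 1.71). Other kept cells together did not, at 717 against 671 CPM (0.09), and Klf1 and Car2 positive cells stood at 146 against 292 CPM (-0.98). The ratio ran from 1.43 to 2.04 over the alternatives tried.

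Other genes of the interferon and class I groups leaned the same way, most of them by less. H2-Q7, a nonclassical class I gene, was at 75.6 against 29.5 CPM (2.57-fold; 2.38 to 2.77), and H2-Q6 and H2-Q4 had log2 ratios of 0.97 and 0.86. These Q-region genes are near-identical copies whose counts may be split between them. Ifi27l2a was at 34.3 against 14.1 CPM, with a larger ratio in the other kept cells (2.14 against 1.04). On the low and high sides of the Elane split its ratio was 0.54 and 0.58, under 2-fold on both, and that of H2-Q7 was 0.81 and 1.39. Of 12 interferon response genes tested, all 12 had a ratio above 0, with a median of 0.29 beside -0.03 for all genes, and 2 passed 1.5-fold, with Ifi27l2a the furthest up. In the other kept cells 13 of 13 such genes were above 0, with a median of 0.38 and 4 past 1.5-fold. A list of 14 class I presentation genes that leaves out the Q-region genes had 1 member past 1.5-fold, H2-K1, at 913 against 597 CPM, and a median of 0.17, against 0.20 in the other kept cells.
The other protein-coding genes 2-fold higher were Wdfy1 (30.0 against 10.6 CPM), Ffar2, a receptor for short-chain fatty acids (21.8 against 7.32 CPM), and Rpl6l (20.6 against 6.95 CPM). Of the 11 genes, 5 were ribosomal or other pseudogenes and gene models, whose reads can be shared with their parent genes. Of the 11, 7 were also 2-fold higher in the other kept cells, so for these the difference was not one of the selected cells alone.

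**Figure D5:**
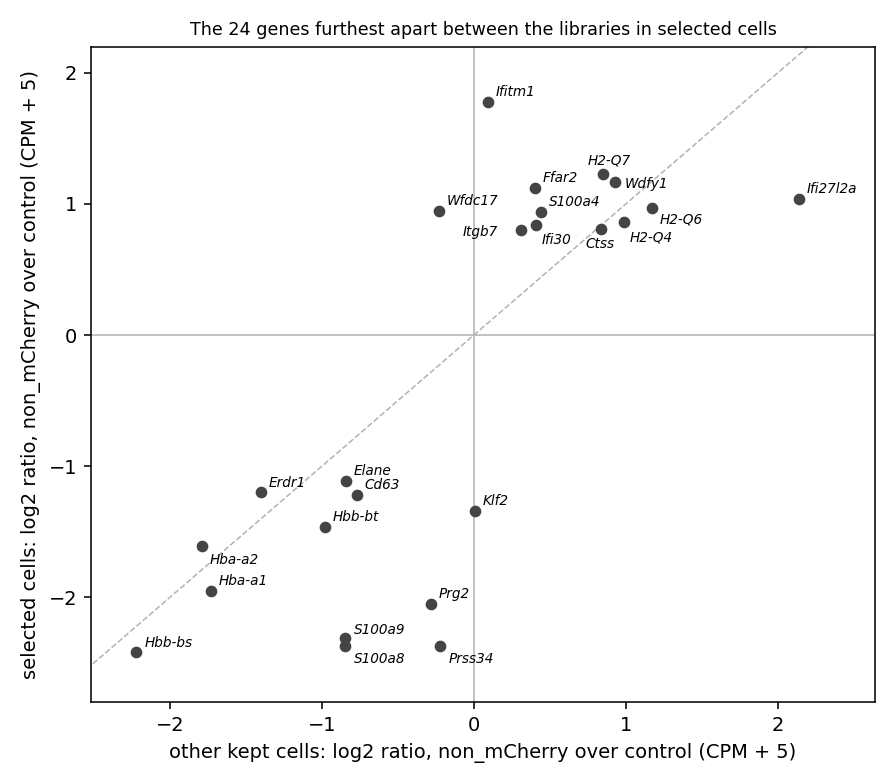
Log2 ratio of non_mCherry over control in other kept cells (horizontal) and in selected cells (vertical) for the 12 genes furthest up and 12 furthest down in selected cells, gene models and ribosomal genes passed over. Ifitm1 (1.78 and 0.09) and Klf2 (-1.34 and 0.01) lie away from the diagonal, and Erdr1 (-1.20 and -1.40) lies near it.

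Klf2 was lower in the selected non_mCherry cells. Klf2, a Kruppel-like transcription factor that restrains inflammatory activation of monocytes (chromosome 8 from 72319033 to 72321656), was at 69.4 CPM (65.3 to 73.5) against 183 CPM (179 to 186) in control, 2.64-fold lower (2.48 to 2.81). In the other kept cells it was at 45.8 against 45.5 CPM, and in Elane-high cells at 22.1 against 30.9 CPM. Within control the Klf2 level went with companion markers, from 79.4 CPM with 2 through 156 CPM with 3 to 219 CPM with 4, while in non_mCherry it was at 65.9, 66.8 and 71.9 CPM. The log2 ratio was accordingly -0.25, -1.17 and -1.54 in cells with 2, 3 and 4 markers. It was -0.86 in cells with fewer than 10 Elane UMIs, under 2-fold, and -1.51 in those with more. Of 13 immediate early and stress genes, which respond within minutes to signals and to cell handling, 4 were also 1.5-fold lower (Nr4a1, Fosb, Zfp36 and Fos), 12 were below 0 and the median was -0.22, against a median of 0.02 over 14 such genes in the other kept cells. Their part in the Klf2 difference was not tested.
Elane was at 1717 against 3715 CPM (log2 ratio -1.11). Among cells with fewer than 10 Elane UMIs the ratio was -0.01, and among those with more it was -0.51. Splitting on Elane itself narrows its ratio within each side, so these values describe the split only. Elane was also lower in the other kept cells (-0.84) and in Klf1 and Car2 positive cells (-1.35). The primary granule list, Elane included, had a median of -0.42 over all selected cells, 0.03 in the cells with little Elane and -0.05 in those with more. Its summed level was 17994 against 24177 CPM. Ly6c2 at 581 against 997 CPM and Flt3 at 53.6 against 33.5 CPM differed as well, while Ly6c2 in the cells with little Elane was at 358 against 226 CPM.

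Among the fate factors, 4 of 12 tested were 1.5-fold lower and 0 higher. Klf4 was at 29.5 against 52.6 CPM, Cebpb at 77.0 against 145 CPM and Nr4a1 at 14.5 against 29.6 CPM, Myc had a log2 ratio of -0.60, and Spi1 was at 291 against 272 CPM. Of 18 monocyte markers, 5 were 1.5-fold higher and 6 lower (median 0.03). S100a4, a calcium-binding protein (40.5 against 18.7 CPM), and Ctss (91.8 against 50.1 CPM) were the furthest up, and Fcgr3, a low-affinity IgG receptor (40.8 against 83.8 CPM), and Cd14, the lipopolysaccharide co-receptor (9.69 against 23.0 CPM), the furthest down. In cells with 10 or more Elane UMIs the ratios of S100a4 and Ctss were 0.21 and 0.49, under 1.5-fold, against 1.05 and 0.63 in cells with fewer.
Receptors were close, with 1 of 17, Flt3, past 1.5-fold and a median of 0.02. Genes of nuclear oxidative phosphorylation (71), fatty acid oxidation (18), fatty acid synthesis, uptake and storage (11) and cholesterol synthesis (7), on which the series bears, had 0 members past 1.5-fold, with medians of -0.01, -0.08, -0.03 and 0.09. Of these, Scd2, a fatty acid desaturase, was the furthest from 0, at 67.4 against 43.6 CPM. G2 and M phase genes had a median of -0.18 over 38 genes, 36 of them below 0, and none past 1.5-fold.

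Several of the genes furthest down had most of their UMIs in a few selected control cells. Hbb-bs, Hba-a1, Hba-a2 and Hbb-bt (hemoglobin chains), Prss34 (a basophil protease), Prg2 (eosinophil major basic protein) and S100a8 and S100a9 were 4.07-fold to 9.05-fold lower in non_mCherry. The hemoglobin chains were also lower in the other kept cells, with log2 ratios from -0.98 (Hbb-bt) to -2.22 (Hbb-bs). For Hbb-bs the ratio was -2.98 in Elane-high cells and -2.83 in Klf1 and Car2 positive cells. Counted for each gene separately among the 2547 selected control cells, the 25 cells with the most UMIs of it held 94.1% of the Prss34 UMIs, 95.6% of the Prg2 UMIs and 78.2% of the S100a8 UMIs. Leaving out the 49 control and 5 non_mCherry cells with 10 or more UMIs of Prss34, Prg2, S100a8 or Hbb-bs, a step added after the data were seen, left 11 genes higher and 7 lower. The log2 ratio was then 0.10 for Prss34, -0.00 for Prg2, -0.56 for S100a8, -0.28 for S100a9, -0.45 for Hbb-bs, -0.48 for Hba-a1, -0.08 for Hba-a2 and -0.24 for Hbb-bt. The cells were left out by their counts of these genes or of genes that go with them. The smaller ratios were thus built into the step and describe where the UMIs lay. Ifitm1 (1.82) and Klf2 (-1.34) were not moved by this step.
Cells above a Scrublet doublet score of 0.25 numbered 118 (4.63%) of the selected control and 17 (1.77%) of the selected non_mCherry cells. Erdr1, near the tip of the sex chromosomes, was at 88.5 against 210.4 CPM with a ratio of -1.40 in the other kept cells, and Cd63 at 26.2 against 67.8 CPM with -0.77 there. Of the 15 genes 2-fold lower, 5 were also 2-fold lower in the other kept cells and 12 passed 1.5-fold there.

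The reporter-negative label was checked on the genes joined by the knock-in. Runx1t1 was at 0.130 CPM in selected control and 0.0621 CPM in selected non_mCherry cells, and at 8.44 CPM in the whole mCherry library. Runx1 was at 166 and 167 CPM in the selected cells and 376 CPM in the mCherry library. Only 2 kept mCherry cells met the rule, so these levels set unlike cells side by side. Cell kind and reporter cannot be told apart in them. Over all barcodes of the matrices, control and non_mCherry shared 24, of which 2 were selected in both, and there were 42 between control and mCherry and 34 between non_mCherry and mCherry.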

How the data were processed

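The control, non_mCherry and mCherry libraries hold UMI counts for 27998 genes per cell barcode, as deposited by the authors. Reads were 150-bp paired-end. The submitters' processing notes name Cell Ranger 6.1.2 and the mm10 build. The matrix headers give software version 3.1.0, and which of them made these counts is not settled here. Whether the barcodes were filtered further is not given in the sources used here. The unmodified counts were read with Python 3.11.15 (numpy 2.4.6, pandas 2.3.3, scipy 1.17.1). All barcodes of the 3 libraries had median UMIs of 14728, 7634 and 7976. UMIs were summed over the cells of a set, scaled to CPM, and compared as log2((CPM + 5)/(CPM + 5)) for genes with 20 CPM or more in either sum. A gene counted as higher or lower at 2-fold. Per-cell shares were repeated after thinning each cell to 5000 UMIs with a fixed seed. Putative doublets were scored per library with Scrublet in scanpy 1.11.5 (score above 0.25) and were kept, their removal being an alternative. The ratios and intervals were tested on simulated sums. Promoters came from RefSeq (GRCm38.p6) and gene positions from GENCODE on GRCm38. The cells, the gene lists and the naming rule were chosen with earlier results of these data known. That rule names the 15 genes furthest up and 10 furthest down against other cells, 12 each way between libraries, 6 each way for related sets, and 2 each way in every list. Other genes named were chosen after their values were seen. The Elane split was added after seeing the data. Some genes the naming rule picks are not reported here.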

Additional observations from a re-analysis of the deposited data

Results flagged for a closer look

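Arl5c, which encodes a small GTPase of the ADP-ribosylation factor family, went opposite ways in the libraries when selected cells were set against the other kept cells. In control it was at 20.2 CPM in selected and 3.03 CPM in other cells, and in non_mCherry at 13 CPM in selected and 40.1 CPM in other cells. The difference of the log2 ratios, non_mCherry minus control, was -2.98 and was not tested, since each group is 1 library. Cd79a-positive cells, which lie among the other cells, had Arl5c at 96.1 CPM in control and 123 CPM in non_mCherry, and they made up 1.03% and 33.7% of the kept cells.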

How the results depend on the processing

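No paired analysis was possible because each group is 1 library. The share of kept cells selected in control and in non_mCherry was 29.5% and 12.9% with 2 or more Irf8 UMIs, 25.3% and 10.2% with 5 or more, 30.4% and 13.4% with 1 or more companion markers, 24.1% and 9.86% with 3 or more, 26.2% and 9.92% with no filter on barcodes, 13.9% and 8.41% thinned to 5000 UMIs, and 14.0% and 10.7% thinned and without Cd79a-positive cells in the denominator. In non_mCherry it was 13.5% with no Cd79a criterion and 18.0% over cells without a Cd79a UMI. The control share over the non_mCherry share was 2.65 with no filter on barcodes, 2.09 with no Cd79a criterion, 1.65 thinned, 1.58 over cells without a Cd79a UMI and 1.30 with both. Against the other cells, a floor of 5 CPM gave 328 lower genes in control and 414 in non_mCherry, a floor of 50 CPM gave 66 higher and 96 lower in control and 86 and 117 in non_mCherry, and the mean of CPM per cell gave 372 lower in non_mCherry. Between the libraries, selected cells had 21 higher and 24 lower genes at a floor of 5 CPM, 5 and 8 at 50 CPM, 21 and 27 thinned, and 7 lower without cells with 10 UMIs of another lineage's gene. Of 788 values of named gene ratios under alternatives, 2 changed sign: Prss34 between the libraries without the cells of another lineage (0.10), and Jchain in control against other cells without a Cd79a UMI (0.02). Cause was not tested beyond what each step leaves out. Depth limits genes under 20 CPM and the class II positive cells.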
